A study of Mus musculus with 16 samples.

Results

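The proteins that carry a cell through G1 are made from a small set of genes, and 10 of them were followed here by their symbols in the RNA-seq and m6A tables of mouse CFU-E cells. They were the D cyclins *Ccnd1*, *Ccnd2* and *Ccnd3*, the E cyclins *Ccne1* and *Ccne2*, the kinases *Cdk2*, *Cdk4* and *Cdk6*, and the inhibitors *Cdkn1b* (p27) and *Cdkn2c* (p18). All 10 were present in both tables, among 15386 genes of the RNA-seq table and 13490 of the m6A table, and all 10 passed the filter on low counts, among 11979 and 11447 genes tested.

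CFU-E cells are bone marrow progenitors that divide rapidly before they become erythroblasts. The RNA-seq compared 3 libraries of control CFU-E cells with 3 Kit-lo libraries, whose labels read Kit low and *Mettl3* KO. Kit-lo cells are a subset of CFU-E cells with little of the receptor Kit that the study described in the mutant mice. The m6A experiment compared 2 libraries of RNA captured with an antibody against m6A (IP) with 2 libraries of uncaptured RNA (input), all from control CFU-E cells. The mice were adults of both sexes on a C57BL/6 background. The mutant mice were *Mettl3* fl/fl EpoR Cre/-, in which *EpoR-tdTomato-Cre* recombines in erythroid cells and in the macrophages of erythroblastic islands, and the labels call the other mice only controls. CFU-E cells were sorted as live Kit+ CD71+ cells that lacked lineage markers, Sca1, CD34, CD41 and CD16/32. The RNA-seq groups therefore differed in genotype and in the Kit level of the sorted cells, which cannot be told apart, and control cells of low Kit were not analysed here. The labels do not say which libraries came from separate mice, so p-values measure the spread between these libraries only.

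The estimated counts totaled 21329242, 17429262 and 18163121 in the control RNA-seq libraries and 18698840, 19987964 and 19313314 in the Kit-lo libraries. They totaled 23160909 and 19421059 in the input and 37142742 and 20085663 in the IP libraries. *Mettl3* itself was at 115, 123 and 129.8 CPM (counts scaled to the library total with TMM factors) in control and at 117, 127 and 108 CPM in Kit-lo libraries, with overlap of the groups (log2 fold change -0.07 ± 0.10 SE, edgeR adjusted p = 0.63). The counts summed over the whole gene did not show the deletion, and 18.4% of its exonic bases are shared with *Tox4* on the opposite strand (161 and 170.4 CPM). Within these tables the genotype therefore rests on the labels, and the groups are named control and Kit-lo here. *Kit* was at 544, 629 and 622 CPM in control and at 68.5, 53.1 and 44.0 CPM in Kit-lo libraries, a 10.8-fold lower level (edgeR adjusted p = 4.3e-07). Kit-lo cells were sorted by low Kit on their surface, so this difference is not independent of the sort. Of the other markers of CFU-E cells, *Gata1* was at 594 and 626 CPM and *Tfrc* (CD71) at 678 and 619 CPM on average in control and Kit-lo libraries, and *Epor* and *Klf1* had log2 fold changes of 0.59 and 0.59. Both lay just above the 1.5-fold threshold. Of the 3 genes of the CFU-E list that passed, 1 did with upper quartile scaling, without the filter on low counts or without control replicate 3, and 2 did without control replicate 2 or Kit-lo replicate 3.

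D cyclins are made in response to mitogens and bind the kinases CDK4 and CDK6, which begin the phosphorylation of RB and so release E2F transcription factors. E2F raises E cyclins, which bind CDK2 and complete the step into S phase. p27 holds cyclin E and CDK2 in check, and p18 belongs to the INK4 proteins, which bind CDK4 and CDK6 and keep D cyclins off. In erythroid progenitors cyclin D3 is known for setting the number of divisions before the cells leave the cycle, and CDK6 is known as a kinase of hematopoietic progenitors.

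In the Kit-lo libraries the 10 genes did not move together. One D cyclin (*Ccnd3*) and both E cyclins rose, *Cdk6* fell, *Cdk2* and *Cdk4* moved in opposite directions by less than 1.5-fold, and the other D cyclins and both inhibitors did not pass the test. DEGs were taken as genes with a fold change of at least 1.5 and an edgeR adjusted p-value under 0.05. By that measure 3 of the 10 genes rose and 1 fell, beside 12.1% of all 11979 genes tested that rose and 9.83% that fell. At any fold, 6 of the 10 passed an adjusted p-value under 0.05, beside 34.5% of all genes, and *Cdk2* and *Cdk4* were lost from these when certain single libraries were left out. The groups had no overlap for 7 of the 10, beside 47.5% of all genes, and the median log2 fold change was 0.36 for the 10 genes and 0.01 for all genes tested. These are bulk samples, in which fewer cells of a type or phase and less RNA per cell cannot be told apart.

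**Figure D1:**
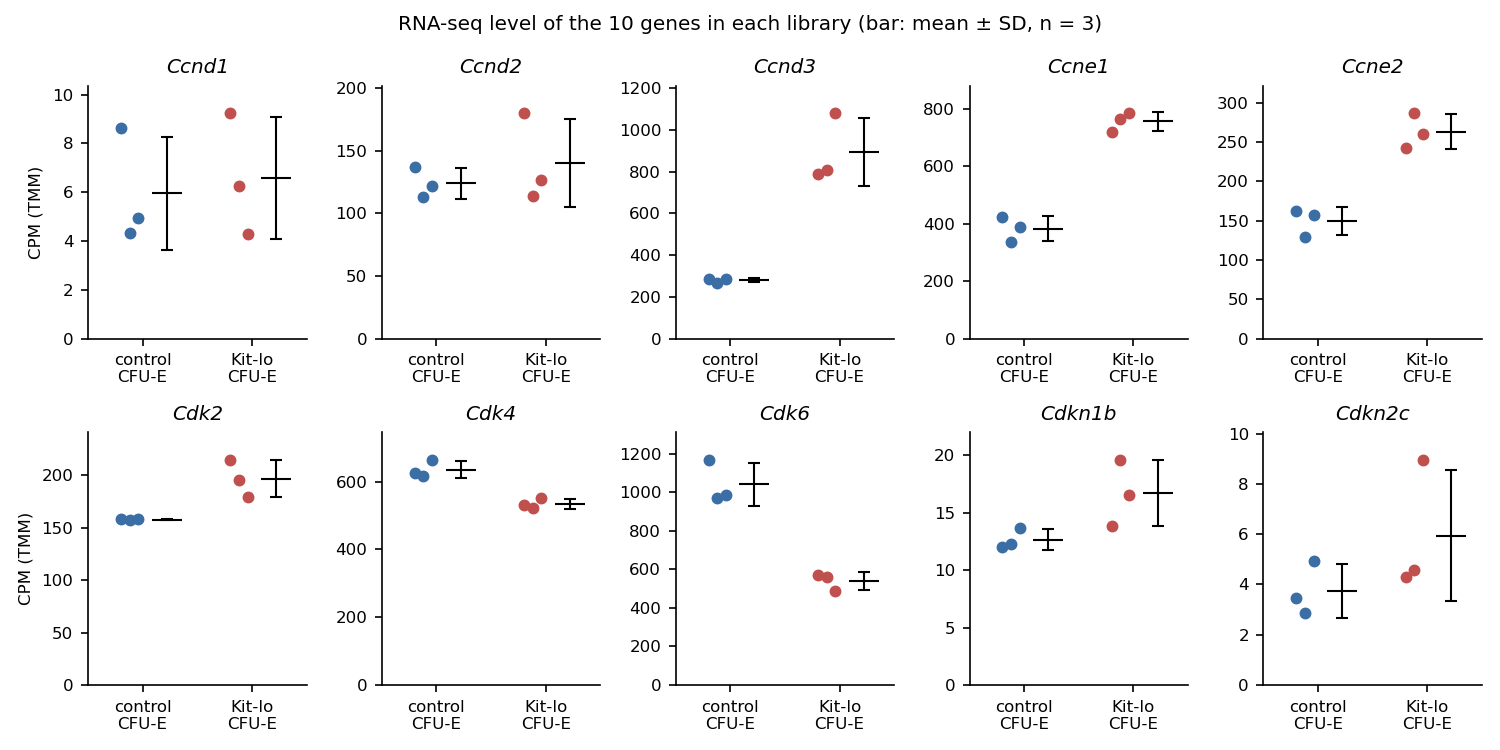
RNA-seq level (CPM, vertical axes from 0, a different scale in each panel) of the 10 genes in each of 3 control CFU-E and 3 Kit-lo libraries (points), with mean ± SD beside them. *Ccnd3*, *Ccne1* and *Ccne2* are higher and *Cdk6* is lower in every Kit-lo library, while the groups overlap for *Ccnd1*, *Ccnd2* and *Cdkn2c*.

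*Ccnd3* had the largest change of the 10 genes. It was at 285, 267 and 285 CPM in control and at 788, 809 and 1080.3 CPM in Kit-lo libraries. The 3 control values lay close together and each Kit-lo value was far above them, with Kit-lo replicate 3 the highest. The rise was 3.20-fold (log2 fold change 1.68 ± 0.12 SE, edgeR adjusted p = 7.5e-06) and ranked 387 among the 11979 genes tested. The gene lies at chr17:47505051-47599691 (GRCm38, plus strand), and 4.11% of its exonic bases are shared with *Bysl* on the opposite strand. *Bysl*, a ribosome biogenesis gene, was at 203 and 283 CPM (log2 fold change 0.48, adjusted p = 0.011, less than 1.5-fold). The strand used in counting is not stated, so reads from the shared bases could be counted for either gene.

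*Ccnd2* and *Ccnd1*, the other D cyclins, did not pass the test. *Ccnd2* was at 137, 113 and 121 CPM in control and at 179.9, 114 and 126 CPM in Kit-lo libraries (log2 fold change 0.18 ± 0.16 SE, adjusted p = 0.43). Its groups overlapped, and without Kit-lo replicate 1, the highest library, the log2 fold change was -0.05. *Ccnd1* was low throughout, at 8.62, 4.35 and 4.92 CPM in control and at 9.25, 6.26 and 4.28 CPM in Kit-lo libraries (log2 fold change 0.14 ± 0.36 SE, adjusted p = 0.80). It shares 23.4% of its exonic bases with *LTO1* on the opposite strand, which was at 30.6 and 24.0 CPM, above *Ccnd1* itself, so the level of *Ccnd1* is uncertain. *Ccnd1* also changed direction with single libraries, to -0.19 without Kit-lo replicate 1 and -0.05 without control replicate 2.

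Both E cyclins rose. *Ccne1* was at 424, 336 and 386 CPM in control libraries and at 719, 764 and 784 CPM in Kit-lo libraries. The lowest Kit-lo library was well above the highest control library, and the rise was 1.98-fold (log2 fold change 0.98 ± 0.09 SE, adjusted p = 4.1e-05). *Ccne2* was at 162, 129 and 157 CPM in control and at 242, 287 and 260.35 CPM in Kit-lo libraries, a 1.76-fold rise (log2 fold change 0.82 ± 0.11 SE, adjusted p = 0.00031). Again no library of one group reached the other. *Ccne1* lies at chr7:38097984-38107534 (minus strand) and overlaps no other annotated exon. *Ccne2*, at chr4:11191351-11204779 (plus strand), shares 17.4% of its exonic bases with *Ints8*, a gene for an Integrator subunit that was at 29.3 and 25.3 CPM and did not pass the test.

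The kinases moved apart. *Cdk6* was at 1171, 969 and 989 CPM in control libraries and at 572, 559.6 and 488 CPM in Kit-lo libraries. Every Kit-lo library was below every control library, by 1.93-fold in the fit (log2 fold change -0.95 ± 0.10 SE, adjusted p = 6.2e-05). *Cdk4*, the partner of D cyclins beside *Cdk6*, was at 624, 617 and 665 CPM in control and at 532, 521 and 551 CPM in Kit-lo libraries. Its groups were apart but the difference was small, 1.19-fold lower (log2 fold change -0.25 ± 0.07 SE, adjusted p = 0.020), and did not reach the fold of a DEG. Its adjusted p was 0.052, 0.082 and 0.071 without control replicate 1, control replicate 3 and Kit-lo replicate 2. *Cdk2*, the partner of E cyclins, was at 158, 157 and 158 CPM in control and at 215, 195 and 179.6 CPM in Kit-lo libraries. It was higher in each of them by 1.25-fold in the fit (log2 fold change 0.32 ± 0.09 SE, adjusted p = 0.018), also short of the fold of a DEG. Its adjusted p was 0.067, 0.061 and 0.072 without control replicate 1, 2 and 3, and 0.054 without Kit-lo replicate 1. *Cdk4* shares 19.7% of its exonic bases with *Tspan31* on the opposite strand, which was at 95.7 and 78.8 CPM (log2 fold change -0.28, adjusted p = 0.060).

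The inhibitors were the least abundant of the 10 genes apart from *Ccnd1*. *Cdkn1b* was at 12.02, 12.2 and 13.7 CPM in control and at 13.9, 19.6 and 16.5 CPM in Kit-lo libraries. The groups did not overlap, though the highest control library lay just under the lowest Kit-lo library, and the difference did not pass the test (log2 fold change 0.40 ± 0.18 SE, adjusted p = 0.12). *Cdkn2c* was at 3.45, 2.86 and 4.92 CPM in control and at 4.31, 4.56 and 8.97 CPM in Kit-lo libraries (log2 fold change 0.67 ± 0.37 SE, adjusted p = 0.20). Only Kit-lo replicate 3 was above all control libraries. The counts were 50 to 172 per library.

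The *Ccnd3*, *Ccne1*, *Ccne2* and *Cdk6* calls were the same in each of 14 alternative analyses, which included DESeq2, other scalings, a replicate block and leaving out each library in turn. Their log2 fold changes ran from 1.53 to 1.76, from 0.89 to 1.06, from 0.71 to 0.88 and from -1.01 to -0.86.

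Set per length, the levels show which family members made up most of the RNA. Values per length were TPM, in which counts are divided by transcript length and scaled to the same total in every library, computed from the counts and the longest protein-coding transcript of each gene. In control libraries the order was *Cdk4* (654 ± 17.8 TPM, mean ± SD, n = 3), *Ccne1* (404 ± 45.6), *Ccnd3* (279 ± 8.71), *Cdk6* (191 ± 21.2), *Cdk2* (138 ± 1.64), *Ccne2* (105 ± 12.1), *Ccnd2* (41.3 ± 4.15), *Cdkn1b* (5.87 ± 0.342), *Ccnd1* (3.37 ± 1.33) and *Cdkn2c* (3.20 ± 0.861). The last 2 overlapped between libraries, and all other neighbours in the order were apart. In Kit-lo libraries *Ccnd3* (941 ± 127 TPM) and *Ccne1* (845 ± 26.6) stood first and overlapped, followed by *Cdk4* (583 ± 12.4), *Ccne2* (196 ± 19.7), *Cdk2* (183 ± 23.4), *Cdk6* (105 ± 13.2), *Ccnd2* (49.7 ± 13.6), *Cdkn1b* (8.20 ± 1.496), *Cdkn2c* (5.32 ± 2.08) and *Ccnd1* (3.98 ± 1.63). There *Ccne2* overlapped with *Cdk2*, and *Cdkn2c* overlapped with both *Cdkn1b* and *Ccnd1*. *Cdk4* was first in control libraries with each of 3 choices of length, and in Kit-lo libraries a cyclin was, *Ccnd3* with the length used and *Ccne1* with the other choices. The order below first place also depended on the length. With the mean over annotated transcripts *Cdk6* had rank 3 and *Cdk2* rank 7 in control libraries, and *Cdk6* had rank 4 in Kit-lo libraries.

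*Ccnd3* was the main D cyclin in both groups and more so in Kit-lo libraries. It made up 84.9%, 86.9% and 86.8% of the summed TPM of the D cyclins in control and 92.4%, 95.1% and 96.0% in Kit-lo libraries. The share of *Ccnd2* was 12.7% ± 0.758 in control and 5.09% ± 1.73 in Kit-lo libraries, and that of *Ccnd1* was 1.03% ± 0.362 and 0.414% ± 0.199 (SD, n = 3). The D cyclin sum was 324 ± 13.8 TPM in control and 994 ± 119 TPM in Kit-lo libraries, and the groups did not overlap. *Ccne1* made up 79.4% ± 0.564 of the E cyclins in control and 81.2% ± 1.04 in Kit-lo libraries, while their sum was 509 ± 57.2 and 1041 ± 46.2 TPM. D cyclins were 39.0% ± 1.69 of D and E cyclins together in control and 48.8% ± 3.54 in Kit-lo libraries.

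Among the 3 kinases, *Cdk6* made up 19.4% ± 1.87 of the summed TPM in control and 12.04% ± 0.915 in Kit-lo libraries, and *Cdk2* 14.1% ± 0.380 and 20.98% ± 1.54. *Cdk4* was the main kinase in both, at 66.5% ± 1.84 and 67.0% ± 2.38, with overlap, and at 58.4% and 64.9% with the mean length described next. The *Cdk6* share depends strongly on the length chosen, since its longest coding transcript has 11525 bases and the mean over its annotated transcripts is 2954. With the mean length the *Cdk6* share was 34.7% in control and 23.8% in Kit-lo libraries. The sum of the 3 kinases was 984 ± 20.7 and 871 ± 48.3 TPM. The 2 inhibitors together came to 1.09% ± 0.149 of the summed D and E cyclins in control and 0.662% ± 0.0819 in Kit-lo libraries, without overlap. Their own sum was higher in Kit-lo libraries, at 9.07 ± 1.17 TPM in control and 13.5 ± 2.27 TPM in Kit-lo libraries, also without overlap. The share was lower because the cyclin sums rose by more. *Cdkn1a* and *Cdkn2d*, given below, are not in this sum.

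**Figure D2:**
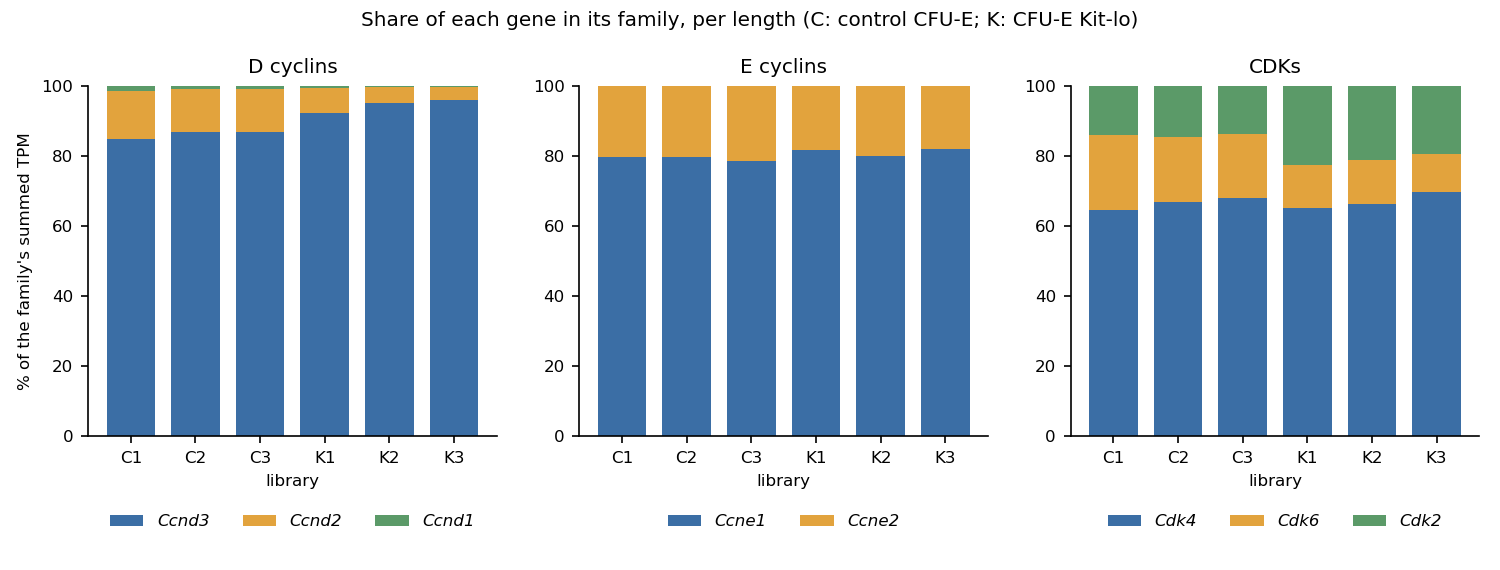
Share of each gene (percent of the summed TPM of its family, vertical axis 0 to 100) in the D cyclins, E cyclins and CDKs, one stacked bar for each of 3 control (C1 to C3) and 3 Kit-lo (K1 to K3) libraries. The *Ccnd3* share is 84.9% to 86.9% in control and 92.4% to 96.0% in Kit-lo libraries, and the *Cdk6* share is lower in every Kit-lo library.

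Ratios within a library do not depend on how libraries are scaled. The log2 ratio of *Ccnd3* to *Ccnd2* was 2.76 ± 0.10 in control and 4.27 ± 0.50 in Kit-lo libraries, a difference of 1.51. That of *Cdk4* to *Cdk6* was 1.78 ± 0.18 and 2.48 ± 0.16, that of *Cdk2* to *Cdk4* was -2.24 ± 0.06 and -1.68 ± 0.16, and that of *Ccne1* to *Ccne2* was 1.95 ± 0.05 and 2.11 ± 0.10. The summed D over the summed E cyclins had a log2 ratio of -0.65 ± 0.10 in control and -0.07 ± 0.20 in Kit-lo libraries. In these, and in *Ccnd3* to *Ccnd1*, the groups did not overlap, and the exact two-sided permutation p was 0.1 (0.13 after adjustment over 8 ratios), the smallest that 3 against 3 libraries can give. The ratio of *Ccnd2* to *Ccnd1* differed by 0.01 (exact p = 1) and that of *Cdkn2c* to *Cdkn1b* by 0.23 (exact p = 0.7).

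The genes nearest to each D cyclin over the 6 RNA-seq libraries were found by the root mean square difference in log2 CPM, each gene centred on its own mean, among the 6930 tested genes whose mean log2 CPM was 4 or more. For *Ccnd3* they were *Emilin2* (a difference of 0.06), *Dhrs13* (0.09) and *Pop7* (0.10). For *Ccnd2* they included *Galk1* (0.06) and *Acot7* (0.07). For *Ccnd1* they were *Vars2*, *Asna1* and *Fbxl18*, at the larger distance of 0.20 to 0.21.

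Promoter sequence is shown for *Ccnd3* and *Ccne1*, which rose, and for *Cdk6* and *Cdk4*, which were lower, from the RefSeq promoter table (GRCm38.p6), as the 250 bases before the annotated start, read 5′ to 3′ on the strand of the gene. The table matched 7 of the 10 genes. *Ccnd3* has 2 entries, at chr17:47504801-47505050 and chr17:47593217-47593466 (plus strand). *Ccne1* is at chr7:38107491-38107740 (minus strand), *Cdk4* at chr10:127063285-127063534 (plus strand) and *Cdk6* at chr5:3343643-3343892 (plus strand). Capitals mark 4 kinds of letters searched on both strands, the GC box GGGCGG, the E box CACGTG, the E2F letters TTCCCGC or TTGGCGC, and the GATA letters AGATAA. The GC box and E2F letters can share bases where they meet.
*Ccnd3* promoter 1: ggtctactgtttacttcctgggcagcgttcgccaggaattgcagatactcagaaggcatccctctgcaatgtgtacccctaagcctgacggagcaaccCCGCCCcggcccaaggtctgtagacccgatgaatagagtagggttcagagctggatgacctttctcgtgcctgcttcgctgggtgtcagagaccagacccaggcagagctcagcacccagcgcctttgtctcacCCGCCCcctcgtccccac
*Ccnd3* promoter 2: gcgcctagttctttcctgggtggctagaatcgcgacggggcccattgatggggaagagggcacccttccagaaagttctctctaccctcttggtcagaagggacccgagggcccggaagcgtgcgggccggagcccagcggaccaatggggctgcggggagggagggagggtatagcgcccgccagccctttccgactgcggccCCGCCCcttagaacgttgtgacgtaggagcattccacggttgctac
*Ccne1*: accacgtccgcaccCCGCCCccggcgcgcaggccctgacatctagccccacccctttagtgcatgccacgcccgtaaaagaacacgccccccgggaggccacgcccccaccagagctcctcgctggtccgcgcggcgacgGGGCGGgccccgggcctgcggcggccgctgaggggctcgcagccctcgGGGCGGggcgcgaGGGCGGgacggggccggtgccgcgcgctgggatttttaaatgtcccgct
*Cdk4*: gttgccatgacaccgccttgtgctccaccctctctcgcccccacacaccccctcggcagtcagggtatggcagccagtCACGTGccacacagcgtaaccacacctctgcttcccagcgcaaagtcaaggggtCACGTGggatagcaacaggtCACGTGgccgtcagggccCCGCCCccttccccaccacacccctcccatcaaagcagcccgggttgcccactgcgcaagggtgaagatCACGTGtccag
*Cdk6*: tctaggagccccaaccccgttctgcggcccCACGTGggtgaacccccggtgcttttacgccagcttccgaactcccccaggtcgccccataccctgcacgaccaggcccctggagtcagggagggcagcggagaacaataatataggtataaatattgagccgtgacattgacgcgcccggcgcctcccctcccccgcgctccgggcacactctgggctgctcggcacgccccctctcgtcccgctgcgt
The GC box letters are in 32.9% of 27025 promoters of the same length, one per gene, the E box letters in 6.05%, the E2F letters in 5.71% and the GATA letters in 10.3%. GC box letters were found in 6 of the 7 genes. *Cdk2* held 5, *Ccne1* 4, *Cdkn2c* 3 (in one of its 2 entries), the *Ccnd3* promoters 2 and 1, *Cdk4* 1, *Cdkn1b* 1 and *Cdk6* 0. *Cdk4* held 4 E boxes and *Cdk6* held 1, and these were the only genes of the 7 with E box letters. E2F letters were found in *Cdk2* (2) and *Cdkn2c* (1, in one of its 2 entries), and GATA letters in none of the 9 windows. These are matches of letters, not sites.

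The genes that act on this machinery were read from lists chosen with earlier results of these data known. Among other CDK inhibitors, *Cdkn1a* (p21), a target of p53 that inhibits cyclin E and CDK2, was at 1.20, 0.629 and 0.744 CPM in control and at 22.7, 22.8 and 17.1 CPM in Kit-lo libraries. The level in each Kit-lo library exceeded that of every control library, and the log2 fold change was 4.57 ± 0.29 SE (adjusted p = 4.0e-06). *Cdkn2d* (p19), an INK4 protein, went from 10.4 to 18.1 CPM, a rise in log2 of 0.80 ± 0.16 SE (adjusted p = 0.0036). The other 3 of the 5 inhibitors were not tested, with *Cdkn1c* (p57) below the filter and *Cdkn2a* and *Cdkn2b* absent from the table. Of the 4 CDK inhibitors tested, *Cdkn1a* had the largest fold change.

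Of 13 RB and E2F genes, 3 rose and 0 fell, with a median log2 fold change of 0.30. Of all genes tested, 12.1% rose and 9.83% fell. *E2f2*, an activating E2F, rose from 14.6 to 81.0 CPM (log2 fold change 2.48 ± 0.16 SE, edgeR adjusted p = 4.9e-06), *Rb1*, the pocket protein that CDK4 and CDK6 phosphorylate, by 0.76 and the E2F partner *Tfdp2* by 0.61. In this list 2 rose with upper quartile scaling or without control replicate 1 or 3, and 4 with DESeq2 or library size scaling. Of 23 E2F targets that serve entry into S phase, 4 rose and 0 fell, with a median of 0.25. The largest rises were those of thymidine kinase *Tk1* (log2 fold change 1.41, 178 to 474 CPM), the ribonucleotide reductase subunit *Rrm2* (1.35, 88.3 to 226 CPM) and the licensing factor *Cdc6* (0.76, 586 to 996 CPM). Of the 23 fitted values, 19 were above 0, beside 6063 of 11979 for all genes.

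Of 9 genes of CDK activation, 1 rose and 1 fell (median -0.20), beside 12.1% and 9.83% of all genes tested. *Cdc25b*, a phosphatase that activates CDKs, rose from 12.2 to 62.7 CPM (log2 fold change 2.36 ± 0.17 SE, edgeR adjusted p = 8.0e-06), and *Mnat1*, which assembles the CDK-activating kinase, fell from 27.3 to 15.6 CPM (-0.81). Of 14 genes that turn over cyclins and p27, 1 rose and 2 fell (median -0.01). *Ambra1*, the receptor that targets D cyclins for degradation, rose by 0.69, and the CUL4 ligase genes *Cul4b* and *Ddb1* had log2 fold changes of -0.63 and -0.62. Of the 14, 0 passed without control replicate 3, 1 without control replicate 2 or with library size scaling, and 5 without Kit-lo replicate 3. Of 5 tested cyclins and kinases of S, G2 and M phase, 1 rose, *Ccnf* (0.78, 113 to 193 CPM), and *Ccna1* and *Ccnb3* were absent from the table. Of 21 other cyclins and CDKs, 1 rose, *Cdk9* (0.73), and 1 fell, *Cdk10* (-0.73), with *Cdk18* not tested. Here 1 passed without control replicate 1 or 3, and 5 without Kit-lo replicate 1.

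**Figure D3:**
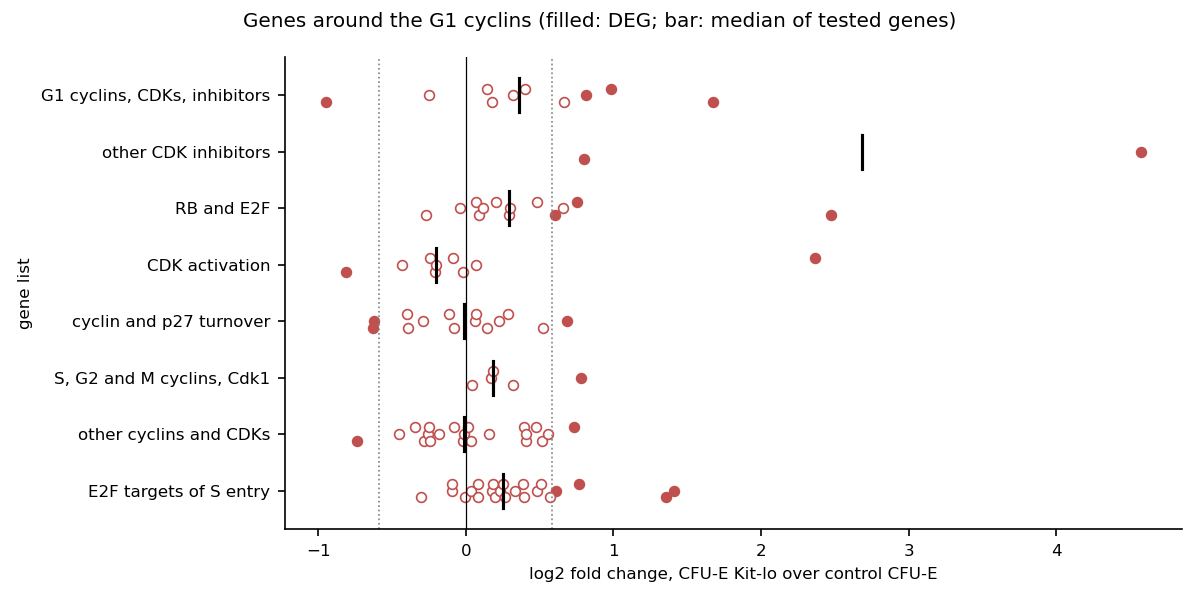
Log2 fold change (horizontal axis, Kit-lo over control) of each tested gene of 8 lists (rows), with filled points for DEGs, a bar at each list's median and dotted lines at a 1.5-fold change. *Cdkn1a*, *E2f2* and *Cdc25b* lie above 2, and most other cyclins and CDKs lie between the dotted lines.

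Markers of maturity moved with the groups. Of 13 tested late erythroid genes 9 rose and 0 fell, beside 12.1% and 9.83% of all genes tested. Their summed level was 1237, 1213 and 1294 CPM in control and 4181, 6130.2 and 5216 CPM in Kit-lo libraries. *Hba-a2* was the most abundant in Kit-lo libraries (1323 CPM on average) and *Fech* in control libraries (456 CPM). *Slc4a1*, *Hbb-bs* and *Hbb-bt* had log2 fold changes of 7.31, 6.84 and 6.42. Of 5 tested early progenitor genes 2 fell, *Gata2* (-3.93) and *Myb* (-2.83), beside 9.83% of all genes tested. The list summed to 254, 269 and 271 CPM in control and 92.5, 90.5 and 87.8 CPM in Kit-lo libraries. *Myb* was the most abundant in control libraries (157 CPM on average). In Kit-lo libraries *Runx1* was, at 58.9 CPM, with *Myb* at 22.1 CPM. *Runx1* did not pass the test (log2 fold change -0.03). *Cd34* and *Flt3* did not pass the filter. Scaling without the late erythroid genes left the calls of all 10 G1 genes as they were. The part of maturity in the cyclin and CDK differences was not tested.

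Other cell types were at low levels. The counts of genes that passed are to be read beside 12.1% of all genes tested that rose and 9.83% that fell. Macrophage markers summed to 22.8, 22.8 and 28.4 CPM in control and 16.6, 13.3 and 16.1 CPM in Kit-lo libraries, 2 of 7 tested fell (*Cd163*, the most abundant, and *C1qa*), and *Adgre1* and *Siglec1* were below the filter. Granulocyte markers summed to 37.8, 29.6 and 25.5 CPM and to 16.6, 16.1 and 24.0 CPM, with 1 of 4 tested up (*Ngp*) and 1 down (*Mpo*). *Mpo* was the most abundant of them in control libraries (19.6 CPM on average) and *Prtn3* in Kit-lo libraries (8.54 CPM, with *Mpo* at 5.01 CPM). *S100a8*, *S100a9*, *Ltf*, *Camp* and *Csf3r* were below the filter. Megakaryocyte markers summed to 13.1, 20.4 and 13.97 CPM and to 22.9, 25.9 and 20.03 CPM, with 2 of 4 up (*Itga2b* and *Gp9*) and *Vwf* the most abundant. Lymphoid markers summed to 0.910, 1.72 and 2.75 CPM and to 3.84, 4.66 and 5.37 CPM, with the only tested gene up (*Ighm*). Of these calls, 1 in place of 2 macrophage genes passed with a replicate block or without any one library other than Kit-lo replicate 1. For megakaryocyte genes 1 in place of 2 passed without control replicate 1 or 3 or Kit-lo replicate 2. Without Kit-lo replicate 1, 1 megakaryocyte gene rose and 1 fell. The call of *Mpo* was lost whichever control replicate was left out, and of the granulocyte genes 2 rose without control replicate 1 or 2 and 1 without control replicate 3. Without Kit-lo replicate 3, 2 granulocyte genes rose and 2 fell. Their part in the results was not tested.

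The m6A experiment asked which of these transcripts were captured by the m6A antibody in control CFU-E cells. Of the 10 genes, *Ccne2*, *Cdk2* and *Cdk6* were higher and *Ccne1* and *Cdkn2c* lower in IP than in input, and the other 5 did not pass the test. Genes were taken as enriched where the fitted ratio of IP to input exceeded 1 with an edgeR adjusted p-value under 0.05, and as lower in IP where it fell short of 1. By that measure 904 genes (7.9%) were enriched and 900 (7.86%) lower in IP. The number enriched depended on single libraries, at 164 without input 1, 571 without input 2, 433 without IP 1 and 1358 without IP 2, and 427 were lower without input 1. With upper quartile scaling the split was 1451 against 754 and with library size only 934 against 608, as the median log2 fold change of all genes moved from 0.06 to 0.18 and 0.21. Values are therefore relative to other transcripts. The groups had no overlap for 7 of the 10 genes, beside 60.9% of all genes.

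**Figure D4:**
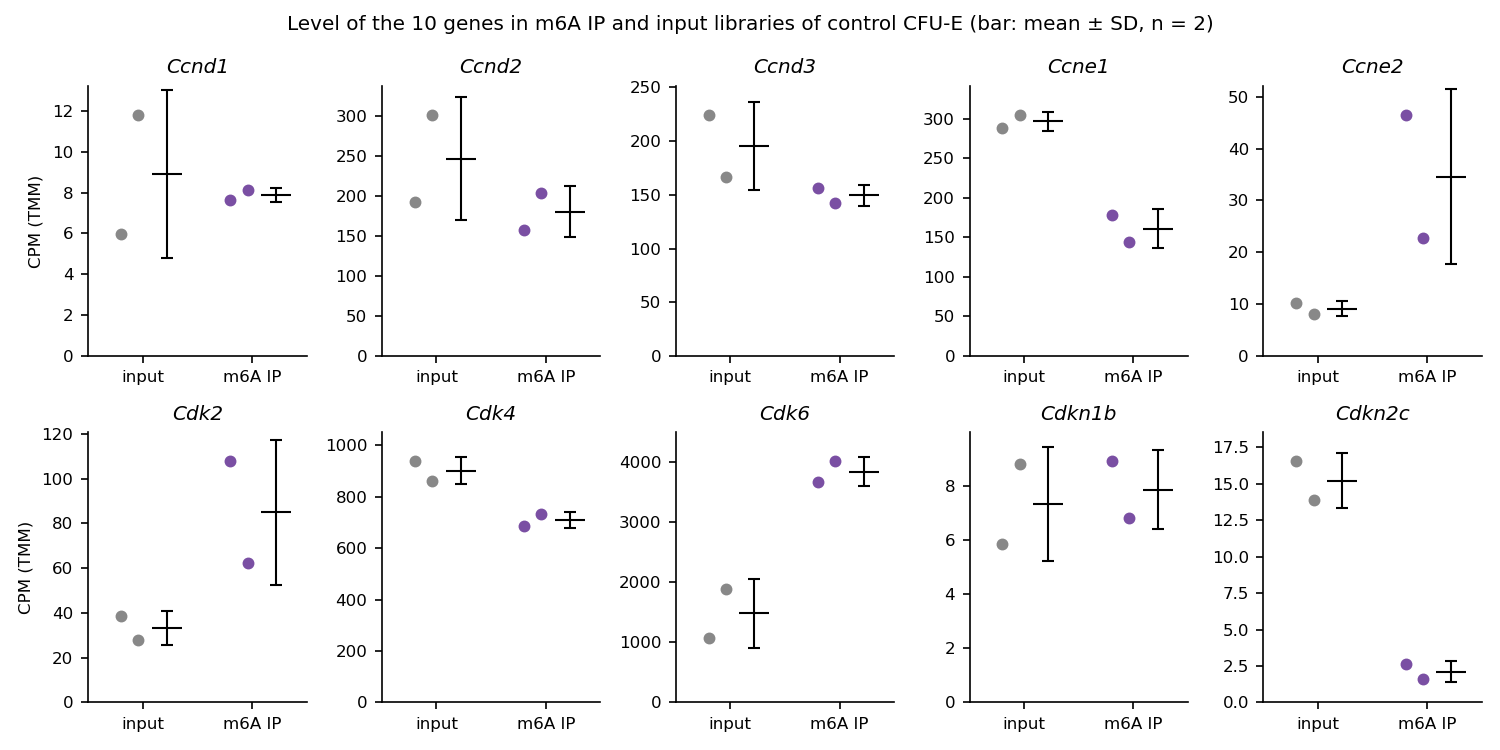
Level (CPM, vertical axes from 0, a different scale in each panel) of the 10 genes in 2 input and 2 m6A IP libraries of control CFU-E cells (points), with mean ± SD beside them. *Ccne2*, *Cdk2* and *Cdk6* are higher and *Ccne1* and *Cdkn2c* lower in both IP libraries. As a ratio, the 2 IP libraries differ most for *Ccne2* and *Cdk2*.

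m6A is placed by METTL3 on adenosines in a short consensus of which GGACT is the best known form. Here whole RNA was captured and sequenced from its 3′ end, so the counts do not place the mark within a transcript. To show what the letters look like in the 5 genes that passed the test, the GGACT nearest to the stop codon whose window of 29 bases lies in 1 exon is given from the longest coding transcript (GENCODE M21, GRCm38), 5′ to 3′, with GGACT in capitals and T written for U.
*Ccne2*: tcattggaatatGGACTaaactagtgcta
*Cdk2*: tccggatctttcGGACTctggggacccca
*Cdk6*: tctccgaggtctGGACTttcttcattctc
*Ccne1*: acttgacccactGGACTcttcacacagat
*Cdkn2c*: gagcagcactctGGACTacccccttcggc
The *Ccne2* window lies at chr4:11203486-11203514 (plus strand, exon 12 of 12, 3′ UTR, 400.0 bases after the stop codon). The *Cdk2* window lies at chr10:128699598-128699626 (minus strand, exon 7 of 8, coding, 247 bases before the stop). The *Cdk6* window lies at chr5:3429008-3429036 (plus strand, exon 4 of 8, coding, 582 bases before the stop). The *Ccne1* window lies at chr7:38098228-38098256 (minus strand, exon 12 of 12, 3′ UTR, 271 bases after the stop). The *Cdkn2c* window lies at chr4:109665684-109665712 (minus strand, exon 1 of 3, 5′ UTR, 608 bases before the stop).

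GGACT is common, and 92.1% of the tested genes with a coding transcript hold it. The transcripts held 2 copies in *Ccne2*, 4 in *Cdk2*, 9 in *Cdk6*, 3 in *Ccne1* and 3 in *Cdkn2c*, and *Cdk4* held none. All 3 copies of *Cdkn2c* are in the 5′ UTR, and 7 of the 9 of *Cdk6* and both of *Ccne2* are in the 3′ UTR. Per kb, *Ccne2* (0.665) and *Cdk6* (0.781) were below the median of all tested genes (1.03), and *Cdk2* (1.66), *Ccne1* (1.5) and *Cdkn2c* (1.21) above it. A link of this density with capture was not tested. The median was 0.924 per kb in enriched and 1.06 per kb in depleted genes over the whole table. Enriched genes had a median coding transcript of 4222 bases and genes lower in IP one of 2342, beside 3107 for all. *Cdk6*, with 11525 bases, was longer than 98.6% of tested genes, and its length and GC content (45.1%) were not separated from its capture here.

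Of the cyclins, *Ccne2* was enriched and *Ccne1* was not. *Ccne2* was at 10.1 and 8.15 CPM in input and at 46.5 and 22.7 CPM in IP, 3.79-fold higher (log2 fold change 1.92 ± 0.35 SE, edgeR adjusted p = 0.0051). Both IP libraries were above both inputs, but they differed from each other by more than the inputs did. The log2 fold change of *Ccne2* was 1.29 without IP 1 and 2.34 without IP 2. *Ccne1* was at 289 and 305 CPM in input and at 178 and 144 CPM in IP (log2 fold change -0.88 ± 0.22 SE, adjusted p = 0.022). Its call was lost without input 1, input 2 or IP 2 (adjusted p = 0.13, 0.12 and 0.055). The difference between the 2 E cyclins was not tested, although their calls had opposite signs. *Ccnd1*, *Ccnd2* and *Ccnd3* had log2 fold changes of -0.17 ± 0.35, -0.45 ± 0.26 and -0.38 ± 0.23 SE (adjusted p = 0.78, 0.26 and 0.27). With a replicate block *Ccnd2* passed as lower in IP (edgeR adjusted p = 0.048), though a pairing of these libraries was not established. *Ccnd3* was at 224 and 166 CPM in input and 157 and 143 CPM in IP.

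*Cdk6* was the most abundant of the 10 genes in these libraries, at 1080.3 and 1892 CPM in input and at 3673 and 4011 CPM in IP. It was 2.58-fold higher in IP (log2 fold change 1.37 ± 0.30 SE, edgeR adjusted p = 0.013), with both IP libraries above both inputs, and the call was lost without input 1 (adjusted p = 0.27). *Cdk2* was at 38.6 and 27.8 CPM in input and at 108 and 62.1 CPM in IP (log2 fold change 1.36 ± 0.30 SE, adjusted p = 0.014), and the call was lost without IP 1 (adjusted p = 0.084). *Cdk4* was at 938 and 864 CPM in input and at 688 and 733 CPM in IP (-0.34 ± 0.22 SE, adjusted p = 0.31), a difference that did not pass the test although the groups did not overlap.

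*Cdkn2c* was at 16.5 and 13.9 CPM in input and at 2.61 and 1.61 CPM in IP, 7.05-fold lower (log2 fold change -2.82 ± 0.34 SE, edgeR adjusted p = 0.00035), and ranked 156 from the bottom of the 11447 genes tested. *Cdkn1b* was at 5.86 and 8.83 CPM in input and at 8.92 and 6.83 CPM in IP, with overlap (log2 fold change 0.11 ± 0.32 SE, adjusted p = 0.85). The calls of *Ccne2* and *Cdkn2c* were the same in each of 10 alternative analyses. *Kit* (0.38, adjusted p = 0.46), *Mettl3* (0.13, adjusted p = 0.75) and *Cdkn1a* (-0.24, adjusted p = 0.73) did not pass the test.

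Set side by side, the 3 enriched genes did not share a direction in the RNA-seq. *Cdk6* fell (-0.95), *Ccne2* rose (0.82), and *Cdk2* was higher by less than 1.5-fold (0.32). *Ccne1*, lower in IP, rose (0.98), as did *Ccnd3* (1.68), which did not pass the m6A test. *Cdk6* was the only one of the 10 genes that was both enriched in IP and a DEG that fell. The share of all genes that met both was not counted, and the dependence of its IP call on single libraries is given above.

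**Figure D5:**
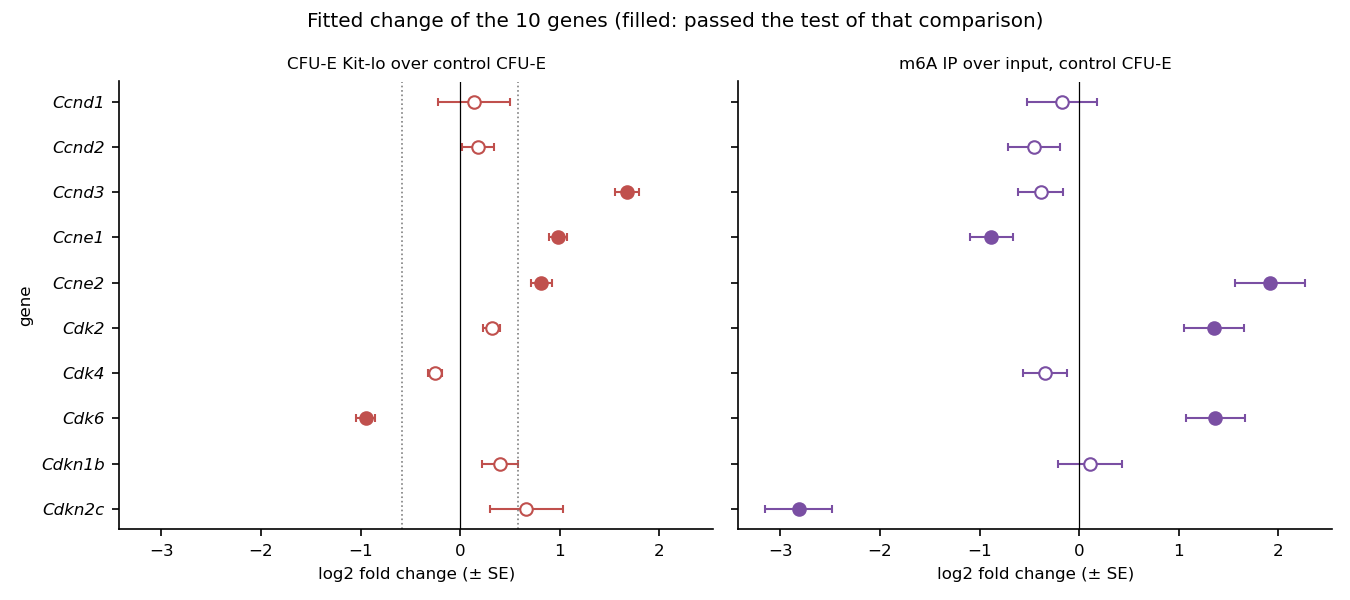
Log2 fold change ± SE (horizontal axes on one scale) of the 10 genes (rows) in Kit-lo over control CFU-E (left, dotted lines at a 1.5-fold change) and in m6A IP over input of control CFU-E (right), with filled points where the gene passed the test. *Cdk6* and *Ccne1* are each filled on opposite sides of 0, in opposite orders, and *Cdkn2c* has the lowest value on the right at -2.82.

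The surrounding genes were read from the same lists, and no test compared the lists. Of all genes tested, 7.9% were enriched and 7.86% lower in IP. Among 23 E2F targets 5 were enriched and 0 lower, led by *Mcm4* (1.66), *Orc1* (1.61) and *Rrm1* (1.46), with a median of -0.05 beside 0.06 for all genes. The list had 1 enriched gene without input 1 or without IP 1, 2 without input 2, 8 with upper quartile scaling, 7 and 1 lower with DESeq2, and 9 and 1 lower without IP 2. With library size scaling 6 were enriched and 1 lower. Among 13 RB and E2F genes 0 were enriched and 4 lower in IP, led by *E2f4* (-2.34), *E2f5* (-2.0037) and *E2f1* (-1.86). Without input 1, 2 were lower, and 1 gene of this list was enriched with DESeq2, with upper quartile scaling or without IP 2. *E2f4*, a repressive E2F, was at 461 CPM in input and 90.8 CPM in IP on average. Among 9 genes of CDK activation 3 were lower (*Wee1* -1.06, *Mnat1* -0.91 and *Cdc37* -0.72). Without input 1, without input 2 or with library size scaling 0 of these passed, and 1 did without IP 1 or with upper quartile scaling. Among 14 turnover genes 2 were lower, the F-box genes *Fbxo31* (-3.10) and *Fbxo4* (-2.54). With upper quartile scaling or without IP 2, 1 gene of this list was also enriched. Among 21 other cyclins and CDKs 2 were enriched, *Ccni* (1.58) among them, and 4 lower, led by *Cdk9* (-4.09, 245 to 14.3 CPM) and *Ccny* (-1.73). With upper quartile scaling 4 of them were enriched and 4 lower. None of the 5 tested cyclins and kinases of S, G2 and M phase passed, with a median of 0.07. *Cdkn1c*, the only other inhibitor to pass, had 13 and 19 counts in input and 0 in both IP libraries, at least 14.3-fold lower against a floor of 3 counts over the IP group, and it did not pass without input 2.

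In these libraries the CFU-E markers summed to 2911 and 3504 CPM in input and 2123 and 2580 CPM in IP (0 of 6 passed), led by *Klf1*. With DESeq2, 1 of them was lower in IP. Over all genes tested, 7.9% were enriched and 7.86% lower in IP. Late erythroid genes summed to 573 and 589 CPM in input and 801 and 727 CPM in IP, led by *Bnip3l*, with *Slc25a37* enriched and *Hbb-bs* lower among those that passed. Without input 1 or input 2 a single gene of that list passed. Early progenitor genes summed to 74.5 and 71.4 CPM and to 81.7 and 67.1 CPM, with 1 of 7 lower (*Spi1*), which did not pass without input 1, input 2 or IP 2, or with library size scaling. Macrophage, granulocyte, megakaryocyte and lymphoid markers summed to at most 17.5 CPM in any library, and *Mpo* alone among them passed, lower in IP, but not without input 1, input 2 or IP 1, or with library size scaling. With upper quartile scaling 1 macrophage gene was also enriched, and with DESeq2 1 lymphoid gene was also lower. The part of these markers in the capture values was not tested.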

How the data were processed

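The authors filtered reads with fastp (0.23.4 per the labels), quantified transcripts with Kallisto (0.48.0 per the labels), summed them per gene with tximport and deposited the estimated counts, unnormalized and all whole numbers. The labels list the builds mm10 and GRCm39, and the methods name mm10. RNA-seq libraries were Smart-seq2 with oligo-dT priming. The m6A libraries were SLIM-seq, with a molecular identifier whose use in counting is not stated, as is the strand of counting. Of 16 labelled samples 10 had values, and the 6 ProE samples were not analysed here.

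Counts were fitted in R 4.3.3 with edgeR 4.0.16 (TMM, filterByExpr, glmQLFit, glmQLFTest), one fit per experiment over its own libraries with no block, and p-values were adjusted over all genes tested by Benjamini-Hochberg. DEGs had a fold of at least 1.5 and an adjusted p-value under 0.05. The SE of a log2 fold change was its size divided by the square root of F. The variation between libraries beyond counting error (edgeR's common coefficient) came to 19.1% for RNA-seq and 21.9% for m6A. No library was a copy of another. TPM used the longest coding transcript of GENCODE M21, in which 99.9% of genes were found by symbol. The IP and input libraries were counted at the 3′ end, so no TPM was made there. Within-library ratios were compared by exact two-sided permutation tests. The fits were tested on simulated data first.

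The 10 genes and the gene lists were chosen with earlier results of these data known. Beside them the text names *Mettl3*, *Kit* and *Cdkn1a*, up to 3 genes of each list that passed in each comparison with the largest changes, the most abundant genes of marker lists, genes of a list that were not tested, and the 3 genes nearest to each D cyclin. Some genes that this rule names are not reported here. DESeq2 1.42.0, other scalings, no filter, a replicate block, other transcript lengths and leaving out each library were alternatives. The authors' own comparisons were not used. Python 3.11.15 with matplotlib 3.10.9 made the figures.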

Additional observations from a re-analysis of the deposited data

How the results depend on the processing

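Replicate numbers did not pair the RNA-seq libraries (correlations of deviations 0.03, -0.02 and -0.07), and with 2 pairs of m6A libraries (0.21) a pairing was not established. With a replicate block, 1370 genes rose and 1125 fell (2495 in all) in the RNA-seq, with the 10 calls as in the report. In the m6A table the block gave 1783 enriched and 1755 lower, and *Ccnd2* became lower in IP (adjusted p = 0.048, log2 fold change -0.43). With it 10 E2F targets were enriched and 1 lower, 4 turnover genes enriched and 2 lower, and 1 RB and E2F gene and 1 cyclin or kinase of S, G2 and M phase enriched. Of the other cyclins and CDKs 4 were enriched and 5 lower. Of the CFU-E markers 1 was enriched and 1 lower, and 1 macrophage gene was enriched and 1 lymphoid gene lower. With no fold threshold 4128 RNA-seq genes passed, *Cdk2* and *Cdk4* among them. With upper quartile scaling 1451 genes were enriched. Leaving out single libraries gave 164 (without input 1) to 1358 (without IP 2) enriched genes, 427 to 968 lower ones, and 3 to 4 of the G1 genes passing in place of 5. The calls of *Ccne1*, *Cdk2* and *Cdk6* in IP were each lost without at least 1 library, as given with their values.

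Directions reversed only where the result had not passed a test. As single libraries were left out, the log2 fold change in the RNA-seq ran from -0.19 to 0.50 for *Ccnd1* and from -0.047 to 0.33 for *Ccnd2*. In the m6A table it ran from -0.61 to 0.39 for *Ccnd1* and from -0.18 to 0.42 for *Cdkn1b*. The difference in the log2 ratio of *Ccnd2* to *Ccnd1* ran from -0.21 to 0.15 and that of *Cdkn2c* to *Cdkn1b* from -0.10 to 0.51 as single libraries were left out.

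Shares per length depended on the transcript chosen, while the direction between the groups did not reverse. With the mean annotated length, in control and Kit-lo libraries, *Ccnd3* made up 75.1% and 89.3% and *Ccnd2* 24.0% and 10.3% of the D cyclins, *Ccne1* 81.9% and 83.6% of the E cyclins, and *Cdk2* 6.88% and 11.3% and *Cdk6* 34.7% and 23.8% of the CDKs, and *Cdk4* 58.4% and 64.9%. With the longest transcript of any type, chosen after seeing the data, *Ccnd1* made up 1.69% and 0.720%, *Ccnd2* 20.9% and 8.85% and *Ccnd3* 77.4% and 90.4% of the D cyclins, and *Cdk2* 10.8% and 16.4% and *Cdk4* 69.0% and 70.9% of the CDKs. The errors given are SDs and SEs that include the spread between libraries.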
